A study of Homo sapiens with 4 samples.

Results

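The cytosolic ribosomal protein genes encode the proteins of the large and small ribosomal subunits. They were taken here as the autosomal protein-coding genes named RPL or RPS plus a number, with RPLP0, RPLP1, RPLP2 and RPSA, and without the RPS6K kinases, the mitochondrial MRPL and MRPS genes and pseudogenes. Of 81 genes with such symbols, 4 lie on the X chromosome (RPL10, RPL36A, RPL39 and RPS4X) and were left out, which leaves 77, of which 46 belong to the large and 31 to the small subunit. Chromatin contacts had been mapped by Micro-C, which cuts crosslinked chromatin with micrococcal nuclease and joins the ends of nucleosomes that lie close together, in SH-SY5Y cells, a line derived from a human neuroblastoma. The groups were control cells (2 libraries) and cells with stably reduced TDP-43 (2 libraries), a nuclear protein that binds RNA and DNA and is the product of TARDBP. Per the labels, shNC and shTDP-43 hairpins were delivered in the same lentiviral vector under a U6 promoter, and knockdown cells were under puromycin, 2 µg/mL over 2 weeks of selection and 1 µg/mL afterwards. The labels do not say whether the lines were clones or pools, how far TDP-43 fell, or whether the 2 libraries of a group were grown apart. The p-values therefore reflect the spread between these libraries, which may be technical.

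Contacts within a single 50 kb bin of hg38 were compared, over every bin that overlaps the body of a ribosomal protein gene. Of the 77 genes, 73 overlapped at least 1 of the 46828 listed autosomal bins, 60 of them 1 bin and 13 of them 2 bins. They covered 84 bins, of which 2 hold 2 of the genes each. The remaining 4 genes, RPL10L among them, overlapped no listed bin and were not analysed here. Totals over the listed pairs were 158400914 and 163147992 contacts for control and 115168160 and 142424414 for the knockdown, of which 83.8% to 84.9% lay within a bin. Each ribosomal protein gene bin held 510 contacts or more in every library.

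Ribosomal proteins are needed in near equal amounts by every growing cell, and their genes are among the most strongly and steadily transcribed of the genome. They are scattered over the chromosomes and not clustered, are mostly short, and start transcription at a cytosine followed by a run of pyrimidines, the terminal oligopyrimidine tract through which mTOR signalling sets the translation of their mRNAs. Many of them also carry small nucleolar RNAs in their introns, which guide the chemical modification of ribosomal RNA.

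The transcription starts of 7 of these genes are shown because a bin of each gene passed the test with the trend removed (a scaling described below), and because they show both kinds of start. RPL26 and RPL27 also passed and are not shown, and RPL3L and RPL8 had no listed start. For RPS27L the bin that passed adjoins the bin of the start. Each line gives 30 bases before the annotated start and the first 10 bases from it, on the gene's own strand, from RefSeq (GRCh38.p14). Capitals mark an unbroken run of at least 5 pyrimidines that begins at the start.
RPL13, chr16:89560652-89560691, plus strand: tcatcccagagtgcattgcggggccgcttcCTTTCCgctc
RPL22, chr1:6199586-6199625, minus strand: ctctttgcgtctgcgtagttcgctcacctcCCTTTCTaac
RPS12, chr6:132814539-132814578, plus strand: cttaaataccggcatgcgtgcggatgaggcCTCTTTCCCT
RPS27, chr1:153990732-153990771, plus strand: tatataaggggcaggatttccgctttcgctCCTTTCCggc
RPS15, chr19:1438366-1438405, plus strand: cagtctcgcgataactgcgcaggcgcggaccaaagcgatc
RPL4, chr15:66504846-66504885, minus strand: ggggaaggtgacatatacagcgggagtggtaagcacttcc
RPS27L, chr15:63157468-63157507, minus strand: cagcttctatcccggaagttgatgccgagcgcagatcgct
The RefSeq promoter table held starts for 60 of the 77 genes. A cytosine followed by 4 pyrimidines lay exactly at a listed start of 43 of them (71.7%), against 988 of all 15843 protein-coding genes of the table (6.24%). The letters CCGGAAG, read on either strand of the 300 bases around the start, were found in 21 of the 60 (35%) and in 16.5% of all genes. CTTTCC, which overlaps the pyrimidine runs, was found in 43.3% against 32.0%, and TATAAA in 10% against 12.4%.

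Bins of ribosomal protein genes were gene-rich and among the strongest bins of the map. The mean number of protein-coding genes they overlapped was 3.07, and in the other autosomal bins it was 0.867. The median contact level in control was 39.0 CPM (contacts scaled to TMM-adjusted library sizes, an adjustment that centres the bulk of pairs between libraries), from 4.16 to 202.1, against 7.68 CPM over all autosomal bins. Of 10 equal classes of control level, the highest held 37 of the 84 bins and the lower 5 classes together held 1, a bin of RPL23. As a share of the unscaled autosomal within-bin contacts, the 84 bins took 0.537% and 0.551% in control and 0.499% and 0.501% in the knockdown. The groups did not overlap in that share. The bins are 0.179% of the autosomal bins. The share of other strong bins was not computed, but 87.7% of the other bins of the highest class were lower with TMM (below).

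With TMM scaling, 49 of the 84 bins (58.3%) had fewer contacts in the knockdown and 1 had more (edgeR quasi-likelihood test, Benjamini-Hochberg adjusted p under 0.05 over all listed pairs). Over all autosomal bins 14.7% were lower and 7.29% higher by the same test. The 49 bins belong to 45 of the 73 genes, and the higher bin to RPL4. The median log2 fold change of knockdown over control was -0.20 (range -0.57 to 0.27), against 0.02 over all autosomal bins. In 59 bins both knockdown libraries lay below both control libraries, in 4 both lay above and in 21 the groups overlapped. Among all autosomal bins, 29.2% lay below and 30.9% above. Leaving out knockdown library 1 reduced the lower bins from 49 to 26, and leaving out knockdown library 2 reduced them to 30.

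That direction was not kept under the other scaling. The fold change in these data moves with contact level, and a loess curve per library removes that trend. The authors' deposited fold changes had it removed as well, within 0.00237 (log2) of the values here. With the trend removed, 6 of the 84 bins were lower (7.14%), 5 were higher (5.95%) and 73 did not pass, while 5.25% of all autosomal bins were lower and 8% higher. The median log2 fold change of the bins was 0.01, against 0.03 over all autosomal bins. The same 6 and 5 counts came from the authors' deposited table. Between the fits, 6 bins were lower in both, 1 higher in both (RPL4), 42 lower with TMM only, and 1, that of RPS27, lower with TMM and higher with the trend removed. Without knockdown library 1 the trend-removed counts were 2 lower and 0 higher, and without knockdown library 2 they were 2 and 1.

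**Figure D1:**
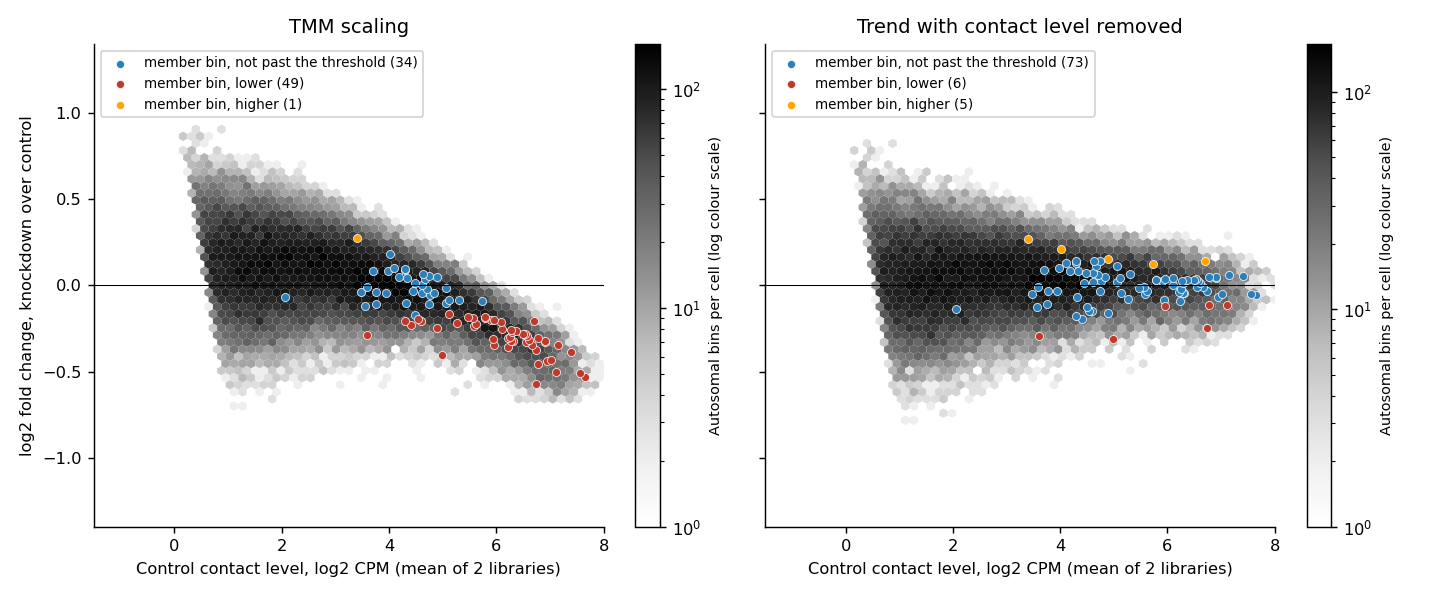
Each point is a bin of a ribosomal protein gene, with the log2 fold change of knockdown over control on the vertical axis and the control contact level (log2 CPM, mean of 2 libraries) on the horizontal axis; grey cells count all autosomal bins on a log colour scale, and 9 of those bins lie outside the axes. With TMM scaling 49 ribosomal protein gene bins are lower and 1 is higher, and they follow the downward slope of the grey cloud, while with the trend removed 6 are lower, 5 higher and 73 do not pass.

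Read against bins of like level, the TMM decreases were common at the highest contact levels. In the highest of the 10 level classes, 36 of 37 ribosomal protein gene bins were lower with TMM, as were 87.7% of the other bins of that class, and the medians were -0.32 and -0.30. In the next class 8 of 18 were lower, against 34.5% of the others. In the 2 classes below that 5 of 26 were lower with TMM, against 8.24% of all bins of those classes. There 1 was lower and 1 higher with the trend removed, against 5.13% and 10.1%. With the trend removed, the highest class had 4 lower and 2 higher among the 37, against 21.3% lower and 14.2% higher of the others.

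Gene number gave a similar picture. The shares lower with TMM were 1 of 10 bins that hold no other protein-coding gene (other bins with 1 gene, 13.5%), 14 of 29 with 2 genes (30.8%), 14 of 21 with 3 (49.1%), 6 of 8 with 4 (70.4%), 7 of 9 with 5 (84.5%) and 7 of 7 with 6 or more (85.7%). Weighted to the same gene numbers, other bins were lower in 47.4% of cases. This was 10.9 percentage points below the 58.3% of ribosomal protein gene bins, whose exact 95% interval runs from 47.1% to 69.0% (Clopper-Pearson, counting error only). That interval takes the bins as independent, although 13 genes cover 2 bins each, and it leaves out the spread between libraries. The weighted median log2 fold change of the other bins was -0.16, which differs by -0.05 from that of the ribosomal protein gene bins. After trend removal the difference of shares changed sign: 7.14% of ribosomal protein gene bins were lower and 13.3% of other bins of like gene number, and the medians were 0.01 and -0.01. The shares higher were then 5.95% and 6.81%. Holding the control level alike instead gave differences of 9.42 points with TMM and -6.12 points with the trend removed. At like level and with the trend removed, ribosomal protein gene bins were also higher less often, 5.95% against 13.1%, and the medians differed by 0.00126. Without knockdown library 1 the difference with TMM was 1.55 points, and without knockdown library 2 it was 3.46 points. These shares describe the bins and were not tested as a set.

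**Figure D2:**
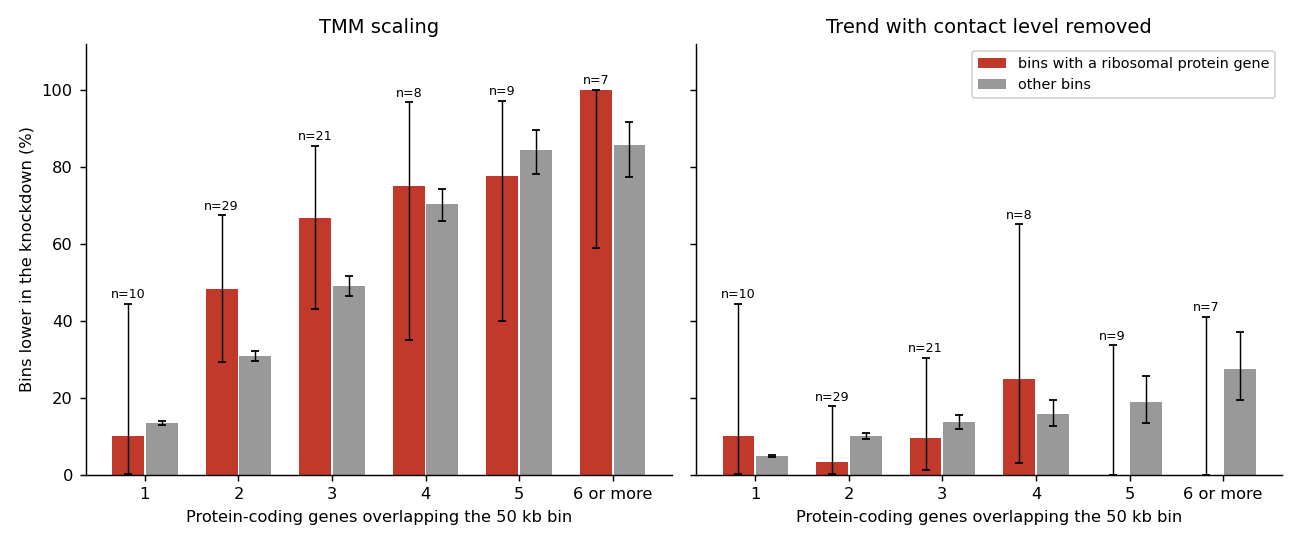
Bars give the percentage of 50 kb bins called lower in the knockdown, by the number of protein-coding genes that overlap the bin, for bins with a ribosomal protein gene (red, number of bins above each bar) and other autosomal bins (grey). Lines are exact 95% Clopper-Pearson intervals of counting error, which take bins as independent. With TMM scaling both kinds rise together with gene number, from 10% and 13.5% at 1 gene to 100% and 85.7% at 6 or more, and with the trend removed the ribosomal protein gene bins with 5 or more genes are lower in 0 of 16 cases, against 19.05% (5 genes) and 27.6% (6 or more) of other bins.

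The 6 bins that were lower under both scalings belong to RPL13, RPL3L, RPL22, RPL8, RPS15 and RPS12. RPL13 encodes a large-subunit protein and lies in the bin at 89550001 to 89600000 of chromosome 16, beside SPG7 and CPNE7, 0.5 Mb from the end of the listed bins. Its levels were 104 and 110 CPM in control and 71.6 and 72.4 CPM in the knockdown. The groups were well apart, and the TMM log2 fold change of -0.57 (SE 0.055, edgeR adjusted p = 3.99e-17) was the largest decrease among the 84 bins. After trend removal it was -0.24 (adjusted p = 3.31e-08), and the bins on either side stood at -0.09 and -0.20. RPL3L, the paralogue of RPL3 that is used in heart and skeletal muscle, overlaps 2 adjoining bins of chromosome 16. The bin at 1900001 to 1950000, with HS3ST6 and MSRB1, held 30.8 and 32.8 CPM in control and 23.4 and 24.7 CPM in the knockdown (log2 fold change -0.40, SE 0.062, adjusted p = 4.52e-08). It had the lowest trend-removed value of all 84 bins, -0.31 (adjusted p = 2.59e-05). The bins of RPL13 and RPL3L kept their calls with the trend removed and any 1 library left out.

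The other 4 lost their trend-removed call in at least 1 such fit. RPS15, a protein of the head of the small subunit, shares the bin at 1400001 of chromosome 19 with GAMT, DAZAP1 and APC2, where levels went from 133 and 142 CPM to 96.9 and 97.6 CPM. Its TMM value was -0.50 (adjusted p = 7.91e-14) and its trend-removed value -0.11 (adjusted p = 0.0133). The bins on either side of it had lower trend-removed values, -0.24 and -0.15. The bin of RPL22, a large-subunit protein, at 6150001 of chromosome 1 also holds the chromatin remodeller gene CHD5. It had 105 and 114 CPM in control against 78.2 and 81.2 CPM, and its log2 fold changes were -0.46 with TMM and -0.12 with the trend removed (adjusted p = 0.0163). With the trend removed the bins on either side stood at -0.12 and -0.16. RPL8, which lies near the catalytic centre of the large subunit, shares its bin at 144750001 of chromosome 8 with the zinc finger genes ZNF251, ZNF34 and ZNF517. Levels there were 62.3 and 62.0 CPM in control and 49.0 and 48.8 CPM in the knockdown, with libraries of a group nearly equal, and the trend-removed value was -0.12 (adjusted p = 0.0490).

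RPS12, a small-subunit protein gene that hosts small nucleolar RNAs, was the single case among bins with no other protein-coding gene. Its bin at 132800001 of chromosome 6 went from 12.7 and 11.5 CPM to 10.6 and 9.27 CPM, and its log2 fold change was -0.29 under both scalings (adjusted p = 0.0161 with TMM, 0.0250 with the trend removed). The bins on either side stood at -0.14 and -0.06 with the trend removed. With TMM the RPS12 call was lost without control library 1 and without knockdown library 2. The 9 other such bins, those of RPLP1, RPS20, RPS24, RPSA, RPL39L, RPL34, RPL11, RPL37A and RPS3A, did not pass in either fit. The median of all 10 was -0.05 with TMM and 0.02 with the trend removed.

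**Figure D3:**
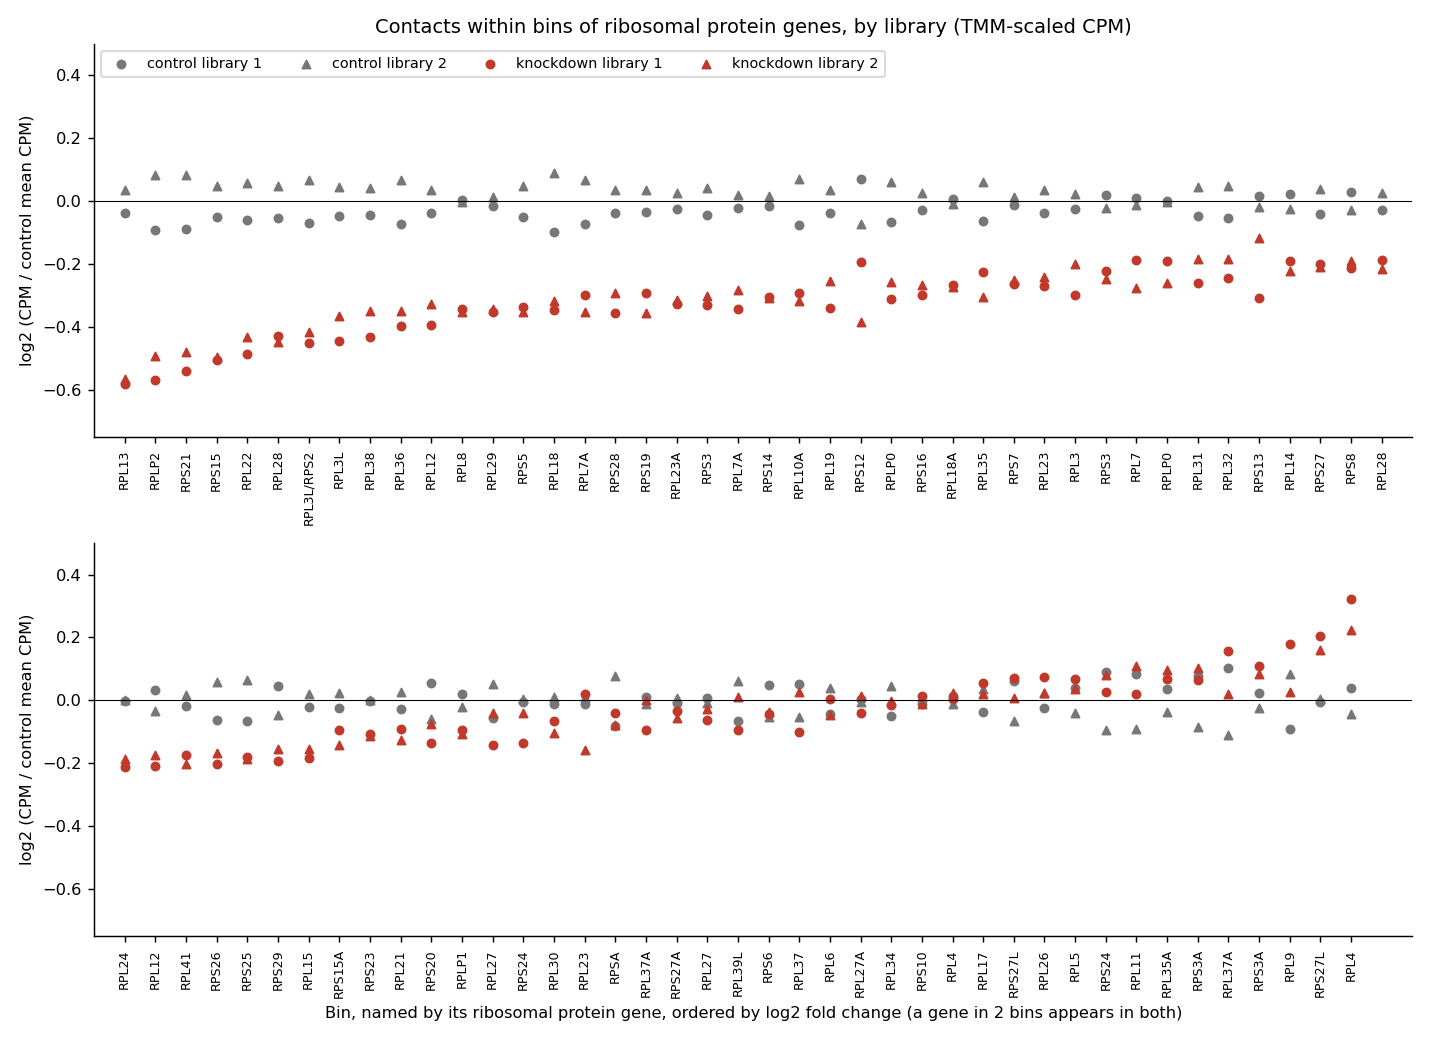
Each column is 1 of 83 ribosomal protein gene bins, ordered over both panels by the log2 fold change with TMM scaling, and points give each library's contact level as log2 of its CPM over the mean CPM of the 2 control libraries (circles library 1, triangles library 2; grey control, red knockdown). Both knockdown points lie below both control points in 58 of the bins drawn, from RPL13 at the upper left, and above them in 4, of which the bin of RPL4 at the lower right stands highest; with the trend removed 6 of these bins are lower and 5 higher.

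The proteins of the stalk, which recruits the factors that drive elongation, are encoded by RPLP0, RPLP1 and RPLP2. RPLP2 has the highest contact level of the 84 bins, at 190 and 214 CPM in control and 136 and 144 CPM in the knockdown, in a bin of chromosome 11 (800001 to 850000) shared with 6 other genes. Its TMM log2 fold change was -0.53 (adjusted p = 1.66e-14), and with the trend removed it was -0.06 and did not pass (adjusted p = 0.223). The RPLP0 bin that also holds PXN had 88.7 and 96.9 CPM in control and 74.9 and 77.7 CPM in the knockdown. It was lower with TMM (-0.28) and at 0.04 with the trend removed, and the second RPLP0 bin, shared with GCN1, gave -0.22 and -0.04. RPLP1, alone in its bin, had 33.8 and 32.9 CPM against 31.3 and 30.9 CPM. There the knockdown libraries lay below the control libraries by less than the test could call (-0.10, adjusted p = 0.256). RPL12, which sits at the base of the stalk, had a bin at -0.36 with TMM and -0.09 with the trend removed (adjusted p = 0.110), and its adjoining bin, with SLC2A8 and ZNF79, was at -0.19 and -0.01. The TMM calls of both RPLP0 bins were lost without knockdown library 1, and that of the second also without knockdown library 2.

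RPS21 had the highest contact level of the small-subunit bins, with 178 and 200 CPM in control and 130 and 135 CPM in the knockdown (-0.51 with TMM, -0.05 with the trend removed). RPS19 and RPS14, whose loss of function underlies Diamond-Blackfan anaemia and the anaemia of the 5q deletion syndrome, were both lower with TMM, at -0.32 and -0.31, and both at -0.04 with the trend removed. RPS19 held 76.0 and 79.8 CPM in control against 63.6 and 60.9 CPM. RPS14 shares its bin with TCOF1 and CD74 and held 73.2 and 74.8 CPM against 59.9 and 59.8 CPM. RPS3, which lines the mRNA entry channel, had a bin at -0.32 with TMM and 0.01 with the trend removed, and an adjoining bin, with ARRB1, at -0.23 and -0.05. The call of the adjoining bin was lost without either knockdown library. The bin shared by RPL3L and RPS2 held 124 and 136 CPM against 95.1 and 97.4 CPM (-0.43 with TMM, -0.05 with the trend removed). Neither RPS6, the target of the S6 kinases (14.1 and 13.1 CPM against 13.2 and 13.3), nor RPSA, also known as the laminin receptor precursor (25.5 and 28.5 against 26.3 and 25.6), passed in either fit, and their groups overlapped. RPS10 gave 24.2 and 24.6 CPM against 24.6 and 24.2 CPM, the smallest TMM fold change of all (0.00, SE 0.064, adjusted p = 0.994).

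Of the remaining large-subunit genes, RPL28 (-0.44 in the bin at 55350001), RPL38 (-0.39) and RPL36 (-0.37) were lower with TMM, and none of them passed after trend removal, where they stood at -0.07, 0.05 and -0.03. The second bin of RPL28 gave -0.20 with TMM and 0.04 with the trend removed. RPL38, known for its role in the translation of Hox mRNAs in mice, was at 164 and 174 CPM in control and 125 and 133 CPM in the knockdown. RPL3, a core protein of the peptidyl transferase centre, gave -0.25 (adjusted p = 0.00161, lost without knockdown library 1) and, with the trend removed, -0.16 (adjusted p = 0.0574). RPL5 and RPL11, which form a particle with ribosomal RNA that can bind MDM2, were not past the threshold. RPL5 held 18.7 and 17.7 CPM in control and 19.1 and 18.6 CPM in the knockdown (0.05), and RPL11 held 26.3 and 23.3 CPM against 25.2 and 26.7 CPM (0.07). The bins of RPL37 (-0.03), RPL6 (-0.02), RPL27A (-0.01) and RPL34 (-0.01) were also close to 0 with TMM and did not pass in either fit. RPL39L, a paralogue best known from testis, had 10.6 and 11.6 CPM against 10.4 and 11.2 CPM (-0.04). RPL23 overlaps 2 bins. The one at 38800001 of chromosome 17 has the lowest level of the 84, at 4.13 and 4.19 CPM against 4.21 and 3.73 CPM, and gave -0.07 with an SE of 0.147. The other, shared with LASP1, held 66.8 and 70.2 CPM against 56.9 and 58.0 CPM, and was lower with TMM (-0.25, adjusted p = 0.00016) and at 0.00 with the trend removed.

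More contacts in the knockdown were called at 5 genes, and for RPL4 alone under both scalings. RPL4, whose long loop reaches the exit tunnel of the large subunit, overlaps 2 bins of chromosome 15. The bin at 66500001 to 66550000, with ZWILCH and LCTL, had 10.9 and 10.3 CPM in control and 13.2 and 12.4 CPM in the knockdown (0.27, SE 0.087, adjusted p = 0.0174; 0.27 and adjusted p = 0.0352 with the trend removed). With TMM that call was lost without control library 2 and without either knockdown library. The neighbouring RPL4 bin, with MAP2K1 and SNAPC5, held 22.6 and 22.2 CPM against 22.5 and 22.8 CPM and did not move beyond its error (0.01). RPS27L, a paralogue of RPS27, gave 16.2 and 16.3 CPM against 18.7 and 18.1 CPM in the bin it shares with LACTB. The change was 0.18 with TMM (adjusted p = 0.0719) and 0.21 with the trend removed (adjusted p = 0.0490). The annotated start of RPS27L lies in the adjoining bin, which it shares with RAB8B and which did not pass in either fit. RPS27 itself lies in a bin of 7 protein-coding genes at 153950001 of chromosome 1, where levels were 101 and 107 CPM in control and 90.4 and 89.7 CPM in the knockdown. Its value was -0.20 with TMM (adjusted p = 0.00355) and 0.14 with the trend removed (adjusted p = 0.00177), so the direction of its call depended on the scaling. RPL26 (0.05 with TMM, 0.16 with the trend removed, adjusted p = 0.0492) and a bin of RPL27 at 43000001 (-0.09 and 0.12, adjusted p = 0.0455) were called with the trend removed only. The second RPL27 bin gave -0.04 and 0.05 and did not pass in either fit. RPS12, RPL26, RPL27 and the second bins of RPL12, RPL23 and RPL28 were named after their values were seen.

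The subunits are described apart, and the difference between them was not tested. Over all autosomal bins 14.7% were lower with TMM and 5.25% with the trend removed. Of the 32 small-subunit bins 18 were lower and 0 higher with TMM, and 2 and 2 with the trend removed (medians -0.19 and -0.02). Of the 54 large-subunit bins 33 were lower and 1 higher with TMM, and 4 and 3 with the trend removed (medians -0.21 and 0.02). At an unadjusted p under 0.05 edgeR with TMM put 1 small-subunit bin higher, and DESeq2 also called 0 of the 32 higher, or 1 unadjusted. Bins of the 43 genes with a pyrimidine start were lower in 31 of 49 cases with TMM (median -0.21), and bins of the 17 genes whose listed starts lack one in 9 of 19 (median -0.17). With TMM 0 and 1 of them were higher. Once the trend was removed 3 and 1 were lower, and 2 and 3 were higher. The difference between these groups was not tested.

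Small nucleolar RNA genes, 58 in all, lie inside 27 of the members. Host bins were lower in 20 of 33 cases with TMM and the other ribosomal protein gene bins in 29 of 51, with medians of -0.21 and -0.19. With TMM 1 and 0 of them were higher. With the trend removed 2 and 4 were lower, and 1 and 4 were higher. Over all autosomal bins 14.7% were lower with TMM and 5.25% with the trend removed. Chromosome 19 carries 12 of the genes, in 11 bins, all of them lower with TMM (median -0.32), against 47.8% of all bins of that chromosome (median -0.17). After trend removal 1 of the 11 was lower, against 14.0% of all bins of that chromosome. Within 5 Mb of a chromosome end, 13 of 14 bins were lower with TMM (median -0.37), against 54.8% of all such autosomal bins, and 4 of 14 with the trend removed, against 30.9%. Away from the ends 36 of 70 were lower with TMM against 11.4% of all interior bins, and 2 of 70 with the trend removed against 3.14%. Of the 6 bins lower in both fits, those of RPL13, RPL3L, RPL8 and RPS15 were within 5 Mb of an end.

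The decrease with TMM extended beyond the bin of the gene itself. The median log2 fold change was -0.20 at the gene, -0.10 and -0.12 in the bins 50 kb before and after it, -0.05 and -0.04 at 200 kb, and -0.12 and -0.06 at 300 kb. Control contact level followed the same outline, with medians of 39.0 CPM at the gene and 28.1 and 34.6 CPM beside it. Without the trend, medians lay between -0.01 and 0.06 from 300 kb before to 300 kb after. For 56 bins both neighbours were listed and free of other ribosomal protein genes. Of these, 32 had a higher control level than both neighbours and 4 a lower one. The fold change lay below both neighbours in 24, above both in 11 and between them in 21 (median difference from the mean of the neighbours -0.04), and with the trend removed in 21, 17 and 18 (median difference -0.02).

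**Figure D4:**
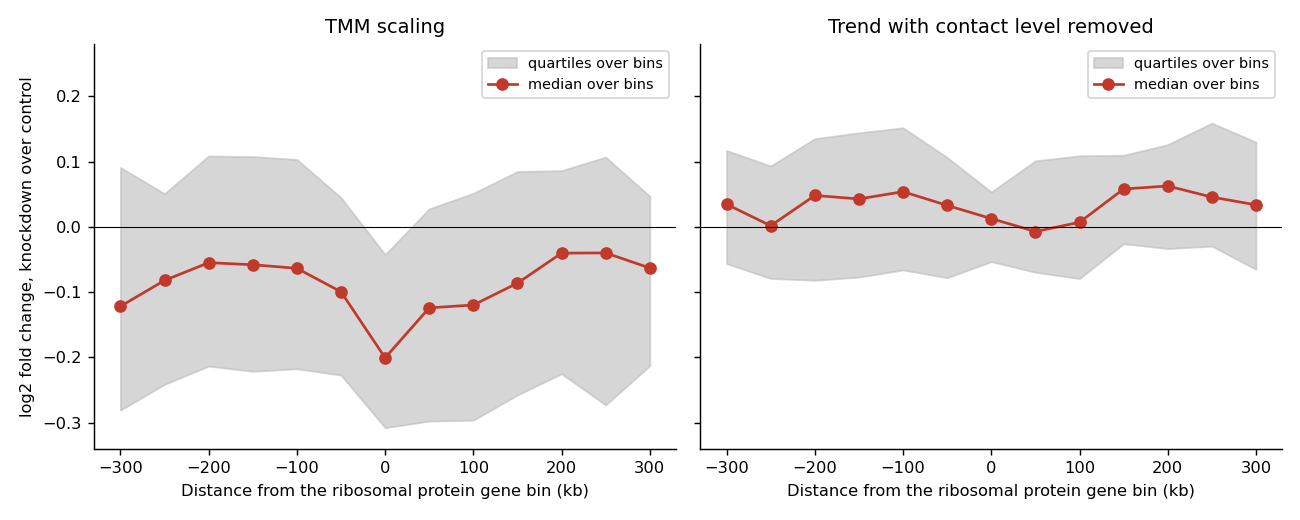
Lines are the median log2 fold change of knockdown over control in ribosomal protein gene bins (at 0 kb) and in the bins up to 300 kb on either side, bands span the quartiles, and the horizontal axis is distance in kb in genome orientation. With TMM scaling the median dips from -0.05 at 200 kb before the gene to -0.20 at the gene, and with the trend removed the medians stay between -0.01 and 0.06.

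Contacts between a ribosomal protein gene bin and another bin were listed for 374 pairs of 70 of the genes, up to 1300 kb apart. With TMM 31 pairs were lower (8.29%) and 4 higher (1.07%), where 5.84% of all autosomal pairs of different bins were lower and 3.77% higher. After trend removal 34 were lower (9.09%) and 2 higher (0.535%), against 7.02% and 1.44% of all, and 29 pairs were lower in both fits. In both fits several of the lower pairs share the RPS21 bin. Such pairs are not independent, so the shares lower lean partly on that bin. The median log2 fold change of the 374 pairs was -0.06 with TMM and -0.13 with the trend removed, and that of other pairs moved likewise, from 0.02 to -0.04. Between adjoining bins the median of the ribosomal protein gene pairs changed sign with the scaling, from 0.02 to -0.04. Lower pairs with TMM numbered 15 of 136 between adjoining bins (11.03%, other pairs 5.63%), 5 of 124 at 100 to 150 kb (4.03%, others 4.58%) and 11 of 114 at 200 kb or more (9.65%, others 7.90%). After trend removal the shares at these distances were 9.56%, 4.84% and 13.2%, and those of other pairs 5.33%, 6.61% and 11.3%. The 14 pairs that join bins which both hold a member had 0 calls in either direction by edgeR, with TMM and with the trend removed, and mostly join the 2 bins of 1 gene. At an unadjusted p under 0.05 edgeR and DESeq2 each put 2 of the 14 lower and 0 higher. Without knockdown library 1 the number of lower pairs was 7, without knockdown library 2 it was 16 and without control library 2 it was 20, and of the 31 found with all libraries these fits called 7, 15 and 17.

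The RPS21 bin gave the 3 largest decreases among these pairs, with bins 300 to 450 kb away on chromosome 20. With the bin at 62750001, which holds NTSR1 and MRGBP, it shared 400 and 451 contacts in control and 206 and 212 in the knockdown. The levels were 2.77 ± 0.221 and 1.56 ± 0.195 CPM (SD, 2 libraries each). On the log2 scale the change was -0.83 (SE 0.21, edgeR adjusted p = 0.00141), or -0.91 with the trend removed. The pairs with the bin at 62800001 (-0.81) and with that of SLCO4A1, an organic anion transporter gene (-0.78), share the RPS21 bin and are not independent of it. In the pair with 62800001 the knockdown libraries lay further apart, at 1.15 and 1.94 CPM (SD 0.558), against 2.59 and 2.86 CPM in control. The RPL38 bin and a bin of SDK2, a synaptic adhesion gene 600 kb away, shared 361 and 444 contacts in control and 192 and 234 in the knockdown (-0.73, adjusted p = 0.00680).

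The 4 higher pairs all join adjoining bins. RPS13 and the neighbouring bin of PIK3C2A had 193 and 197 contacts in control and 235 and 351 in the smaller knockdown libraries (0.76, SE 0.22, adjusted p = 0.00896; 0.67 and adjusted p = 0.0369 with the trend removed). RPLP1 and its neighbour had 463 and 564 contacts against 593 and 732 (0.55, adjusted p = 0.00300), and this call also held with the trend removed (0.48). Those of RPL17 (0.54) and RPL15 (0.50) were lost with the trend removed (adjusted p = 0.0982 and 0.0993) and without control library 2.

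Bins of other genes of ribosome production were also lower more often with TMM than with the trend removed. Of 52 bins of ribosome biogenesis factors, 2 of them shared with ribosomal protein genes, 24 were lower with TMM (46.2%, median -0.16) and 5 with the trend removed (9.62%). All autosomal bins gave 14.7% and 5.25%, and other bins of like gene number 38.4% and 10.8%. The decreases were led by RRP1 (-0.47 with TMM, -0.21 with the trend removed), NHP2 (-0.42 and -0.11) and NOP14 (-0.41 and -0.11). Translation factors and other genes with terminal oligopyrimidine mRNAs had 10 of 31 bins lower with TMM (32.3%, median -0.13), against 35.5% at like gene number. With the trend removed 1 was lower (3.23%, against 10.5%), that of EEF2, the elongation factor of translocation (-0.41 and -0.13). EIF3G (-0.39) was lower with TMM only. For the RNA polymerase I machinery it was 9 of 23 (39.1%, median -0.12) and 1 (4.35%), that of TAF1C (-0.43 and -0.17), against 31.2% and 9.33% at like gene number. UBTF (-0.30) and POLR1G (-0.26) were lower with TMM only. By edgeR none of these 3 lists had a higher bin in either fit, and by DESeq2 likewise. At an unadjusted p under 0.05 edgeR put 1 biogenesis factor bin, 2 translation factor bins and 0 RNA polymerase I bins higher with TMM, and 2, 4 and 2 with the trend removed.

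Of the 104 bins of mitochondrial ribosomal protein genes 42 were lower and 2 higher with TMM (median -0.10), and 12 and 5 with the trend removed. The shares lower, 40.4% and 11.5%, stood beside 42.9% and 11.9% of other bins of like gene number. MRPS34 (-0.55 and -0.16), MRPL23 (-0.52 and -0.19) and MRPL28 (-0.52 and -0.14) led the decreases. Among 5 genes of the surveillance of ribosome assembly, 3 of 7 bins were lower with TMM, those of CDKN2A and CDKN1A (-0.19) among them, and 0 were higher. With the trend removed 1 of the 7 was lower and 1 higher. At like gene number 26.1% and 8.28% of other bins were lower. The CDKN2A bin was lower under both scalings, from 27.1 ± 2.34 to 20.2 ± 0.17 CPM (SD, n = 2 per group; -0.42, or -0.36 with the trend removed). Without the trend CDKN1A stood at 0.02 and did not pass the threshold. Its TMM call was lost without either knockdown library. The 5 lists share 1 bin, which was lower with TMM, and counted once they together had 87 lower and 2 higher bins with TMM, against 20 and 6 with the trend removed. Without knockdown library 1 the number lower with TMM was 42, and without knockdown library 2 it was 49.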

How the data were processed

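Micro-C contacts of 2 control and 2 TDP-43 knockdown libraries were analysed. The authors deposited raw contact counts for 89239 pairs of 50 kb bins. Per the file headers the same table holds the authors' fold change and abundance on the log2 scale, an F statistic (a score), and a raw and an adjusted p-value. Per the submitters' processing notes HiC-Pro and hg38 were used, with no versions. The titles end in "merged" without saying what was merged. The list holds the more abundant pairs, so its totals are not the full depth.

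The model was edgeR 4.0.16's (with limma 3.58.1 under R 4.3.3), with TMM scaling, filterByExpr (0 pairs removed, smallest total 868), glmQLFit and glmQLFTest, with Benjamini-Hochberg adjustment over all pairs and a threshold of 0.05. The common dispersion was 0.00812 (coefficient of variation 9.01%). A second fit removed the trend with abundance by loess offsets per library. Levels are CPM and intervals cover counting error only. Same-numbered libraries deviated with r = 0.0192, so the numbers were not taken to pair samples. Both tests were checked on simulated counts. There edgeR recovered 98% of log2 changes of size 1 and 24% of those of size 0.5, with either scaling. DESeq2 recovered 92% and 15%. The log2 fold changes of the 84 bins ran from -0.57 to 0.27 with TMM, so a bin that did not pass may still have changed.

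Gene bodies came from RefSeq GRCh38.p14, and a bin was its listed middle ± 25 kb. The distance to a chromosome end was taken from the first and last listed bins. Bins were named by a rule: the 12 largest decreases and up to 6 increases past the threshold with groups apart, the 6 smallest changes, the 2 highest and 2 lowest levels, 18 genes of known role, 4 pairs in each direction and 3 genes per list. Some items that this rule named are not reported here. The members and lists were chosen with earlier results of these data known. Alternatives were DESeq2 1.42.0, no filter, a replicate block, within-bin rows alone, the authors' table, each library left out, a 0.01 threshold, other member definitions, and, chosen after seeing the data, trend removal combined with each library left out, with the block, or with level held alike.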

Additional observations from a re-analysis of the deposited data

How the results depend on the processing

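With TMM scaling the ribosomal protein gene bins kept a negative median (-0.22 to -0.18) under DESeq2, no filter, the replicate block, within-bin rows alone, each library left out and the other member definitions. Trend removal and the deposited table of the authors, which are nearly the same fit, ended it. With the trend removed there were 6 lower and 5 higher bins, a median of 0.0126 and differences from bins of like gene number of -6.16 points and 0.0213. From the deposited values there were 6 and 5, with 0.0126, -6.1 points and 0.0212. With the trend removed and the control level held alike in place of gene number, the differences were -6.12 points and 0.00126. Trend removal and the deposited table each gave 2 higher pairs of different bins, and 20 lower and 6 higher bins in the comparison lists. DESeq2 gave 0 higher bins, 2 higher pairs and 0 higher in the lists, and within-bin rows alone gave 2 higher bins and 5 in the lists. A 0.01 threshold gave 0 higher bins, 18 lower and 2 higher pairs and 0 higher in the lists.

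The replicate block gave 49 lower and 1 higher with TMM, and 8 and 5 with the trend removed. With TMM it changed no call of a named result. Leaving out 1 library gave 26 to 49 lower and 0 to 1 higher bins, 7 to 38 lower and 0 to 12 higher pairs, and 42 to 100 lower and 0 to 6 higher bins in the lists. With the trend removed as well it gave 5, 5, 2 and 2 lower and 5, 3, 0 and 1 higher bins (without control 1, control 2, knockdown 1 and knockdown 2). Each such fit leaves 1 library in a group, which is assumed to vary like the other group.

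Of 60 named results, 6 changed sign once the trend was removed and likewise in the deposited values. They were RPL38 (0.0517 and 0.0517), RPS3 at 75400001 (0.0116 and 0.0117), RPLP0 at 120200001 (0.0351 and 0.0351), RPS27 (0.143 and 0.143), POLR1G (0.0291 and 0.0291) and CDKN1A (0.0164 and 0.0165). With 1 library also left out, in the order above, RPL38 gave 0.0596, 0.0408, 0.0784 and 0.0258, RPS3 gave 0.00448, 0.015, 0.0173 and 0.00902, RPLP0 gave 0.00946, 0.059, 0.052 and 0.0197, and RPS27 gave 0.145, 0.144, 0.124 and 0.16. Without knockdown library 2 and with the trend removed, RPS19 stood at 0.000493 and RPLP0 at 120150001 at 0.00851. The cause of these changes was not tested. With 2 libraries a group, small changes could not be resolved at low contact levels.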
